A study of Homo sapiens with 12 samples.

Results

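The genes described here are the 37 genes of the human mitochondrial genome: 2 rRNAs, 13 mRNAs and 22 tRNAs. They were chosen by name, as every gene whose GENCODE 29 symbol begins with MT-, and all 37 were found among the 58735 genes of the count tables. Their RNA was counted in HEK293T, a human embryonic kidney cell line that carries the large T antigen. The groups with a tested agent were cells transfected with 500 ng of a plasmid expressing miR-211, a microRNA that is encoded in an intron, and cells that received a Dicer-substrate siRNA at 1 nM whose target is U1, the small nuclear RNA that recognises the start of introns. Each had its own control: a control plasmid for miR-211 and a scrambled oligo for the U1 siRNA, with 3 libraries in each of the 4 groups. Sample titles of the U1 siRNA and scrambled oligo libraries carry the label WT, and those of the plasmid libraries do not. Total RNA was taken 24 h after transfection and sequenced as pairs of 126 nt reads. The submitters stated a transfection efficiency of at least 50%, judged by GFP, so plasmid libraries mix transfected and untransfected cells, and they stated that U1 was lowered by 30%. Nothing in the labels says whether the 3 libraries of a group came from separate cultures, so the p-values below measure only the spread between libraries, which may be technical.

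Human mitochondrial DNA is a small circle whose genes lie almost end to end. Both of its strands are copied into long precursors that span many genes, and these are cut mainly at the tRNAs that stand between the others, by RNase P and ELAC2, which release the tRNAs, rRNAs and mRNAs. The rRNAs form the core of the mitochondrial ribosome, the tRNAs serve it, and the mRNAs encode subunits of the respiratory chain and ATP synthase: NADH dehydrogenase (complex I), cytochrome bc1 (complex III), cytochrome c oxidase (complex IV) and ATP synthase (complex V). None of these genes has a nuclear-type intron, so none is a substrate of the spliceosome that U1 belongs to.

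The packing of this genome decides which reads can be counted, and 3 sets of sequences show it. They are the GENCODE 29 sequences on GRCh38, written in the direction of the gene. The count program assigns a read pair to a gene only where it overlaps no other gene, so pairs over bases that belong to both of 2 genes go to neither. MT-ATP8 and MT-ATP6 share 46 bases, MT-ND4L and MT-ND4 share 7, and MT-ATP6 and MT-CO3 share 1. In the lines that follow, capitals mark the shared bases at chrM:8512-8572, chrM:8527-8587, chrM:10745-10766 and chrM:10760-10781, in that order.
MT-ATP8 3' end: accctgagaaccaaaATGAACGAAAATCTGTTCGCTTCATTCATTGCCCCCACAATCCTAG
MT-ATP6 5' end: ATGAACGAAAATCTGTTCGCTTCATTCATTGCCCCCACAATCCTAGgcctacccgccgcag
MT-ND4L 3' end: cctaaacctactccaATGCTAA
MT-ND4 5' end: ATGCTAAaactaatcgtcccaa

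The shared stretch holds the end of one reading frame and the ATG that opens the next. Of the 13 mRNAs, 9 begin with ATG. The annotated ends of 7 hold a whole stop codon, and the other 6 stop short of one: 5 end in a lone T and 1 (MT-ND1) in TA, where polyadenylation is known to supply the missing letters. MT-CO1 ends in AGA and MT-ND6 in AGG, triplets that are read as arginine codons in the nuclear code. MT-ND6 is the only mRNA on the minus strand, and its composition is the reverse of the others: 35.6% of its bases are G and 7.05% are C, against 6.28% (MT-ATP8) to 16.2% G (MT-CO1) and 29.5% (MT-ND3) to 36.0% C (MT-ND1) in the other mRNAs.

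The tRNA genes are 59 to 75 bases long, shorter than a single 126 nt read, so a pair that touches one nearly always reaches the next gene. MT-TP at chrM:15956-16023 (minus strand) faces the control region, where no gene is annotated. MT-TW at chrM:5512-5579 (plus strand) and MT-TS1 at chrM:7446-7514 (minus strand) are closed in by genes on both sides. These 3 are shown because they carry most of the counts discussed for the tRNAs, and capitals mark the anticodon.
MT-TP: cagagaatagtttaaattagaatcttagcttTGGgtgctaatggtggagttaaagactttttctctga
MT-TW: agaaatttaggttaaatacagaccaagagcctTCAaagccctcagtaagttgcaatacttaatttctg
MT-TS1: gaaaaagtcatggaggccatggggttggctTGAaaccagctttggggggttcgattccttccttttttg

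Copies of mitochondrial DNA in the nuclear genome set the other limit. MTATP6P1, a pseudogene at chr1:633696-634376 (plus strand), differs from MT-ATP6 at 10 of 681 bases (98.5% identity), and the longest run of identical bases is 141, longer than a read. The stretches below, from base 121 to base 206 of each gene (chrM:8647-8732 and chr1:633816-633901), are shown because they hold 4 of the 10 differences, in capitals.
MT-ATP6 stretch: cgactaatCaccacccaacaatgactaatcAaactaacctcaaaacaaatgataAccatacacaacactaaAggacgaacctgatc
MTATP6P1 stretch: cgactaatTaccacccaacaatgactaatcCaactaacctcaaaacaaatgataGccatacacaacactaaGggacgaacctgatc

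Summed over all genes, depth was 4515728 counts in the smallest library (U1 siRNA 2) and 9290686 in the largest (scrambled oligo 3). MIR211 had 1646, 1997 and 1976 counts in miR-211 libraries, against 1, 9 and 1 in control plasmid libraries. The 15 U1 genes summed to 18.9, 14.0 and 17.1 CPM (counts per 1000000 gene counts) in U1 siRNA libraries, against 19.4, 19.3 and 16.5 CPM in scrambled oligo libraries, so these ranges overlap; 5 to 8 of the 15 were at 0 counts, and reads that match several U1 copies are not counted. Of the markers listed for HEK293T, VIM, NEFM, KRT18 and KRT8 were counted in every library, while PAX2, LHX1 and INA were at 0 to 7 counts. Fibroblast markers summed to 2.59 to 15.5 CPM, blood markers to 2.32 to 8.64 CPM and melanocyte markers to 11.1 to 21.0 CPM. The U1 siRNA 2 library stands apart in its pairs outside annotated exons, which can lie in introns or between genes. They made up 44.5% of its unique mappings, against 14.5 to 25.5% in the other 11.

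The 37 genes took 2.97 to 4.78% of all gene counts. Most of this was mRNA, less was rRNA, and tRNA counts were 0.00472 to 0.00795%. The share of all 37 was 4.78, 4.45 and 3.60% in miR-211 libraries, against 4.59, 3.76 and 4.08% in control plasmid libraries. In the U1 experiment it was 3.14, 3.38 and 3.20% in U1 siRNA libraries, against 3.82, 3.42 and 2.97% in scrambled oligo libraries. In both comparisons the ranges of the groups overlap. Because these are shares of one total, fewer mitochondria, less RNA in each and more nuclear RNA cannot be told apart, nor can fewer cells of a kind and less RNA per cell.

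The mRNA share was 3.13, 3.08 and 2.54% in miR-211 libraries, against 3.18, 2.67 and 2.75% in control plasmid libraries. With the U1 siRNA it was 2.01, 2.58 and 2.29% in U1 siRNA libraries, against 2.58, 2.42 and 1.99% in scrambled oligo libraries. Groups overlap in both, and their means were 2.92 ± 0.326% in miR-211 cells and 2.87 ± 0.271% in control plasmid cells (SD, n = 3 each), and 2.29 ± 0.280% in U1 siRNA cells and 2.33 ± 0.305% in scrambled oligo cells (SD, n = 3 each). The rRNA share was 1.65, 1.36 and 1.05% in miR-211 libraries, against 1.40, 1.08 and 1.32% in control plasmid libraries. With the U1 siRNA it was 1.12, 0.796 and 0.903% in U1 siRNA libraries, against 1.23, 0.995 and 0.972% in scrambled oligo libraries. The means were 1.35 ± 0.297% in miR-211 cells and 1.27 ± 0.169% in control plasmid cells (SD, n = 3 each), and 0.941 ± 0.166% in U1 siRNA cells and 1.07 ± 0.145% in scrambled oligo cells (SD, n = 3 each), each pair closer together than the larger of its SDs. The difference in the share of all 37, 0.134 percentage points for miR-211 minus control plasmid, was -0.118 without miR-211 library 1 and -0.0585 without control plasmid library 2, and per uniquely mapped pair it was -0.0276. The difference for U1 siRNA minus scrambled oligo, -0.164, was 0.0443 without scrambled oligo library 1. The count ratio of mRNAs to rRNAs ran from 1.79 (U1 siRNA 1) to 3.24 (U1 siRNA 2), the library with the most pairs outside exons.

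**Figure D1:**
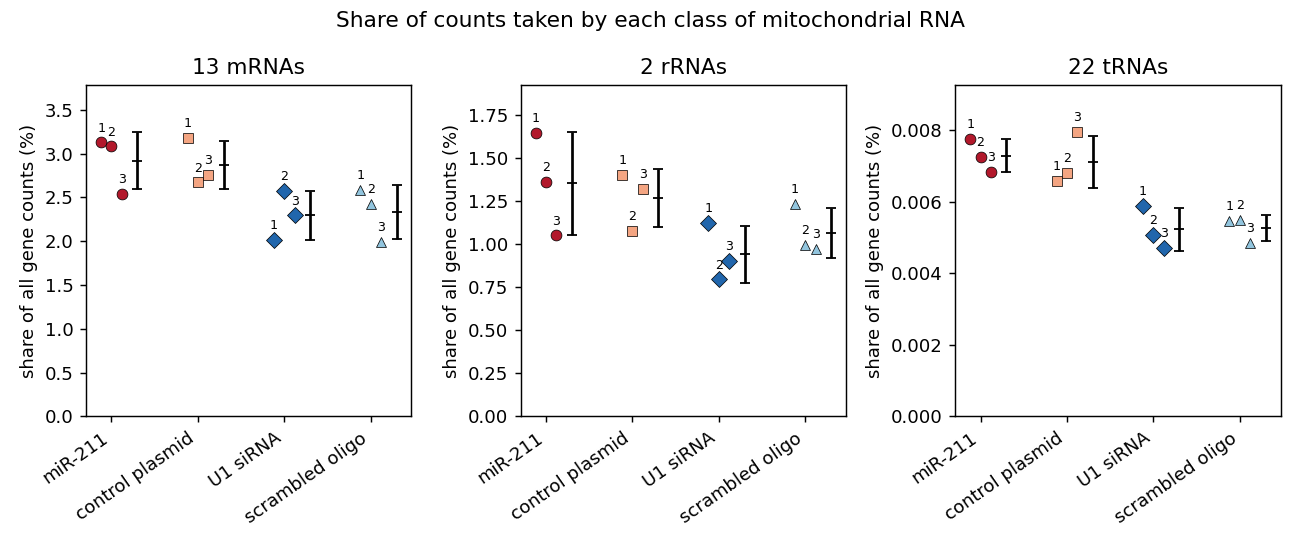
Share of all gene counts (%, vertical axes from 0) taken by the 13 mRNAs, 2 rRNAs and 22 tRNAs in each of the 12 libraries, by group, with replicate numbers above the points and bars for the mean ± SD (n = 3). Groups overlap in both comparisons in all 3 panels, and the mRNA share runs from 1.99% in scrambled oligo 3 to 3.18% in control plasmid 1.

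Levels between genes are compared as counts per kb of annotated gene per 1000000 gene counts, averaged over the 12 libraries. On this scale the mRNAs of complex IV, the terminal oxidase, led. MT-CO2, the subunit that takes electrons from cytochrome c, had 7923 (range 6724 to 9304). MT-CO1, the catalytic subunit, had 5716 (range 2771 to 7522), and MT-CO3 had 2853 (range 2287 to 3888). MT-CO2 was above MT-CO1 in all 12 libraries and MT-CO1 above MT-CO3 in all 12. Next came MT-CYB, the cytochrome b of complex III, at 2085 (range 1653 to 2676) and MT-ATP6, the subunit of the proton channel of ATP synthase, at 1655 (range 1335 to 2165), again in the same order in all 12 libraries. MT-ATP8, a small subunit of ATP synthase whose gene overlaps that of MT-ATP6, had 385 (range 304 to 505), and MT-ATP6 was 3.85 to 4.97 times as high per kb. Only 161 bases of MT-ATP8 lie in no other gene, and pairs that reach another gene are not counted. Levels per kb of short genes such as MT-ATP8 and MT-ND3 can therefore be too low, and how far was not tested.

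The 7 complex I mRNAs, which encode the membrane arm of NADH dehydrogenase, were all below MT-ATP6 by their means. MT-ND4L had 1209.8 (range 1019 to 1498), MT-ND2 1178 (range 917 to 1608) and MT-ND1 1107 (range 866 to 1579) counts per kb on that scale. MT-ND5 had 950.0 (range 818 to 1085) and MT-ND4 940.1 (range 780.0 to 1124), followed by MT-ND3 with 392 (range 307 to 496). MT-ND6 was last, with 326 (range 263 to 393), and MT-CO2 was 21.4 to 27.7 times as high. Counted for each strand apart, MT-ND6 had 14182 and 14882 counts, so strand is not resolved. Its level can therefore include RNA of either strand over its bases. Neighbours in the order that changed places between libraries were MT-ND4L over MT-ND2 (higher in 9 of 12), MT-ND1 over MT-ND5 (11 of 12, not in U1 siRNA 2), MT-ND5 over MT-ND4 (6 of 12), MT-ND3 over MT-ATP8 (6 of 12) and MT-ATP8 over MT-ND6 (11 of 12). The other 7 neighbouring pairs kept their order in every library. Dividing the same counts by only those bases that no other gene covers kept 11 of the 13 ranks, with MT-ND3 and MT-ATP8 exchanged. This does not bring back pairs lost where genes overlap or abut.

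Of the rRNAs, MT-RNR2 (the 16S rRNA of the large ribosomal subunit) had 6397 (range 4538 to 8634) and MT-RNR1 (the 12S rRNA of the small subunit) 1678 (range 928 to 3145) counts per kb on that scale. MT-RNR2 was 2.75 to 4.89 times as high per kb as MT-RNR1. Both are cut from the same precursors, and both abut tRNA genes, where pairs are not counted. What the counting rule and the library step add to this ratio was not tested. MT-RNR2 was below MT-CO2 in all 12 libraries, at 0.575 to 0.938 of its level, and above MT-CO1 in 9 of 12. The step from total RNA to library (poly(A) selection or removal of rRNA) was not given in the sources at hand, and it bears on any comparison of rRNA with mRNA. Among all 58735 genes ranked per kb of exon, MT-CO2 was at rank 2, MT-RNR2 at 3, MT-CO1 at 4 and MT-CO3 at 6, and 12 of the 15 rRNAs and mRNAs were within the first 100, with MT-ND6 the lowest at 150.

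**Figure D2:**
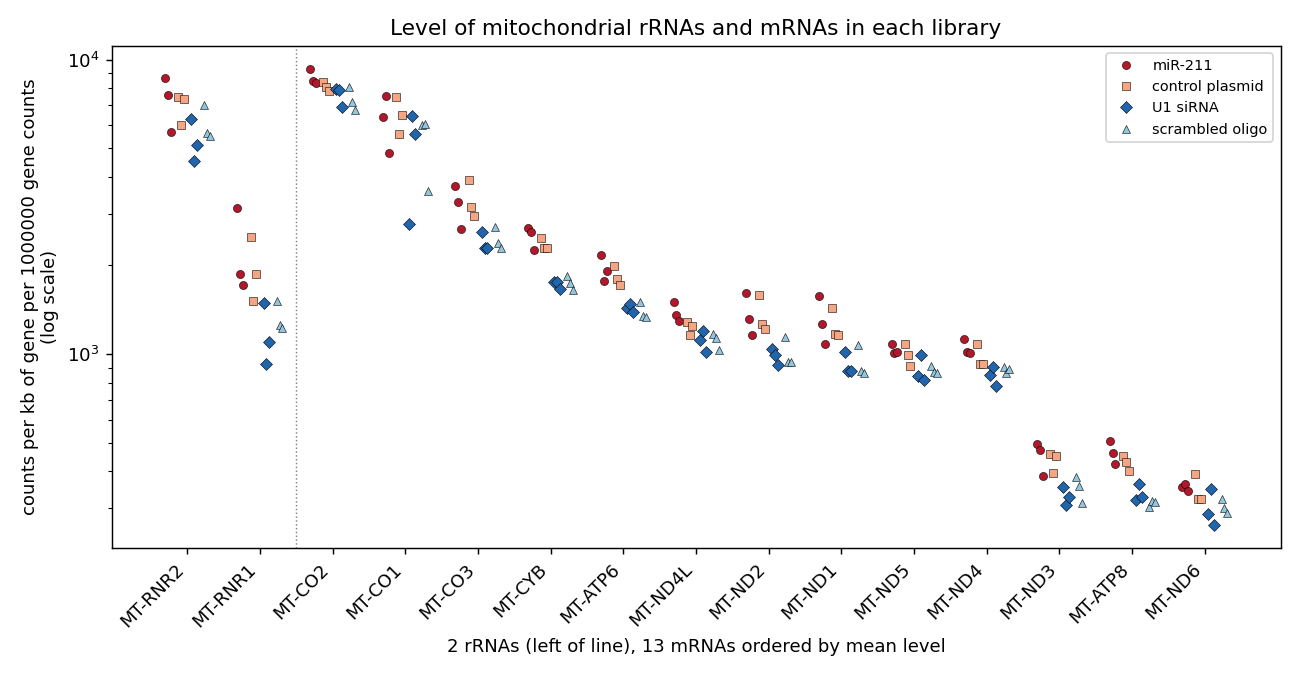
Counts per kb of gene per 1000000 gene counts (log scale) of the 2 rRNAs and 13 mRNAs in each of the 12 libraries, with mRNAs ordered by their mean and 1 point per library, marked by group. MT-CO2 is highest among the mRNAs and MT-ND6 lowest by the mean, and MT-CO1 has the widest spread of the mRNAs, from 2771 to 7522.

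The members differed in how far replicate libraries of a group spread. MT-CO1 had the largest coefficient of variation within groups, 27.0%, followed by MT-RNR1 with 25.6% and MT-RNR2 with 16.0%. MT-CYB had the smallest, 5.87%, and MT-CO2 had 6.98%. Counting error is far smaller, 0.409% for MT-CO1 and 0.520% for MT-CO2 at their mean counts, so depth does not limit these values.

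MT-CO1 was low in U1 siRNA 1 (4273 CPM) and scrambled oligo 3 (5499 CPM) and highest in miR-211 2 (11598 CPM). MT-CO2, whose gene is separated from MT-CO1 only by MT-TS1 and MT-TD, differed 1.38 times between its highest and lowest library, and MT-CO1 2.71 times. The MT-CO1 to MT-CO2 count ratio was 0.788, 1.84 and 1.82 in U1 siRNA libraries, against 1.67, 1.90 and 1.20 in scrambled oligo libraries. In the plasmid experiment it was 1.55, 2.00 and 1.31 in miR-211 libraries, against 1.99, 1.56 and 1.87 in control plasmid libraries. The low libraries thus lie in both groups of the U1 comparison, and MT-CO1 took 13.6% (U1 siRNA 1) to 29.3% (U1 siRNA 2) of the counts of the 37 genes. Other adjacent pairs kept tighter ratios: MT-ND1 to MT-ND2 ran from 0.811 to 0.901, MT-ND4 to MT-ND4L from 3.45 to 3.99 and MT-ND5 to MT-ND6 from 9.51 to 10.7 over the 12 libraries. As strand is not resolved, the MT-ND6 count can include RNA of either strand. The MT-RNR1 to MT-RNR2 ratio ran from 0.125 (U1 siRNA 2) to 0.223 (miR-211 1).

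**Figure D3:**
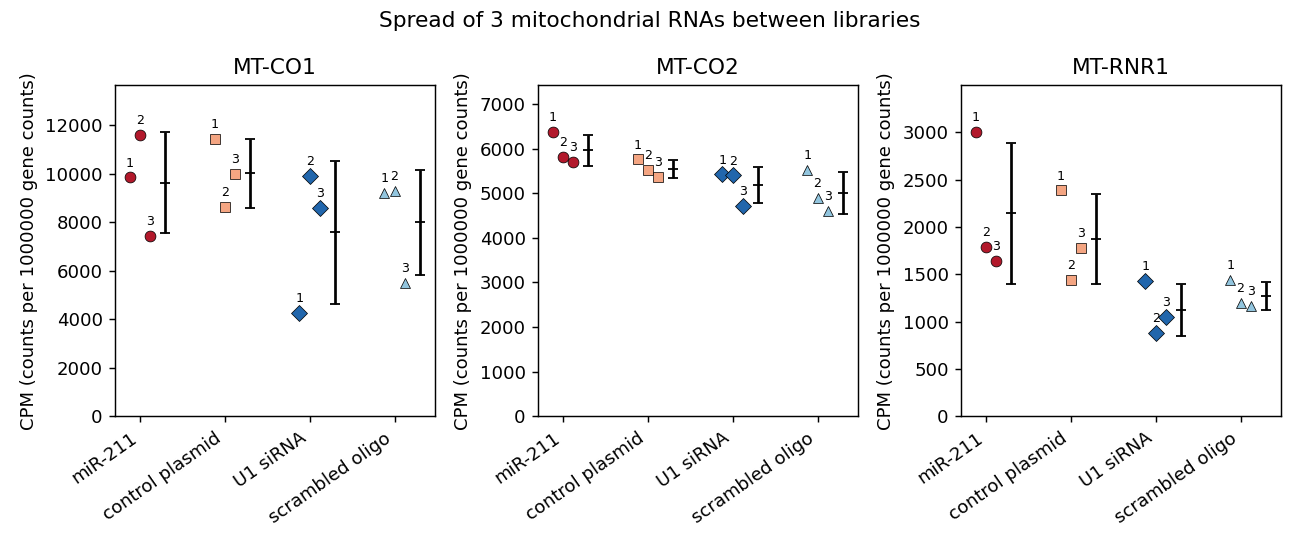
CPM (counts per 1000000 gene counts, vertical axes from 0) of MT-CO1, MT-CO2 and MT-RNR1 in each library, by group, with replicate numbers above the points and bars for the mean ± SD (n = 3). U1 siRNA 1 and scrambled oligo 3 are low for MT-CO1, at 4273 and 5499 CPM, and have 5420.3 and 4599 CPM of MT-CO2.

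The plasmid and the oligonucleotide experiments also stand side by side in these libraries. Of the 16 mitochondrial genes with a mean of at least 1 CPM, 9 were higher in all 6 plasmid libraries (miR-211 and control plasmid) than in all 6 oligonucleotide libraries (U1 siRNA and scrambled oligo), a pattern found in 0.556% of all 14214 genes at that level, and its opposite in 0.908%. The 9 were MT-RNR1, MT-ND1, MT-ND2, MT-ND3, MT-ND4, MT-ATP6, MT-ATP8, MT-CYB and MT-TP. MT-CYB had 2583 to 3053 CPM (median 2724) in plasmid libraries, against 1886 to 2107 CPM (median 1997) in oligonucleotide libraries. MT-RNR1 had 1443 to 2999.9 CPM (median 1785), against 885 to 1441 CPM (median 1183), so its groups are separated by little. MT-CO2 had 5357 to 6364 CPM (median 5730), against 4599 to 5512 CPM (median 5143), and overlapped. The ratio of means, plasmid over oligonucleotide libraries, was 1.13 (MT-CO2) to 1.68 (MT-RNR1), with a median of 1.32 beside 0.961 over all genes at that level. The study's design sets each agent against its own control and not these experiments against each other. The agent delivered, the transfection, whatever the WT label of the oligonucleotide libraries stands for and any difference in handling thus cannot be told apart. No test was made.

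Without regard to strand, the 22 tRNAs together had 5145 counts in all 12 libraries, and MT-TP had 5099 of them (99.1%). MT-TF, the tRNA on the other side of the control region, had 34. Of the other 20, 8 had 1 to 4 counts in all libraries and 12 had none. MT-TP and MT-TF are the only tRNAs with a side on which no gene is annotated, and the widest gap beside any of the others is 31 bases. As MT-TP has 68 bases, its counts can come from longer RNA that runs past the gene. Strand is not resolved for it either (3051 and 2618 counts for each strand apart). These counts, and the tRNA share they dominate, need not follow the level of the mature tRNA. A count of 0 here says only that no pair met the counting rule, and it would allow up to 3 counts by counting error alone.

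The deposited tables also hold 2 columns in which pairs are counted for 1 strand at a time, so that a pair over 2 genes on opposite strands can be counted. Summed over both columns, the tRNAs had 39383 counts, 7.65 times the unstranded total. MT-TW had 15648 in place of 0, MT-TS1 8969 in place of 1, MT-TQ 3844 in place of 0, MT-TY 2850 in place of 0 and MT-TE 1436 in place of 0, while MT-TP had 5669 in place of 5099. Of the 11 tRNAs that have an annotated neighbour on the opposite strand, 10 had more than 100 counts in the strand columns, and the exception, MT-TD, had 8. Of the 11 with neighbours on their own strand only, none had more than 35, and 5 (MT-TK, MT-TG, MT-TR, MT-TS2 and MT-TL2) had 0 in all 3 columns.

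The mRNAs split in the same way. The 4 with a neighbour on the opposite strand had more counts in the sum of the strand columns: MT-ND6 107% (29064 in place of 14020), MT-ND5 10.5%, MT-CO1 2.05% and MT-CYB 0.933%. Here too a pair can be counted for both neighbours. The other 9 gained at most 0.0205%. MT-ND6, which lies tail to tail with MT-ND5, thus ranks 11 of 13 per kb in either strand column and 13 of 13 in the unstranded one. Its count thus changes 2.07 times with the counting rule, more than the 1.49 times by which its CPM differs between the highest and the lowest library.

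**Figure D4:**
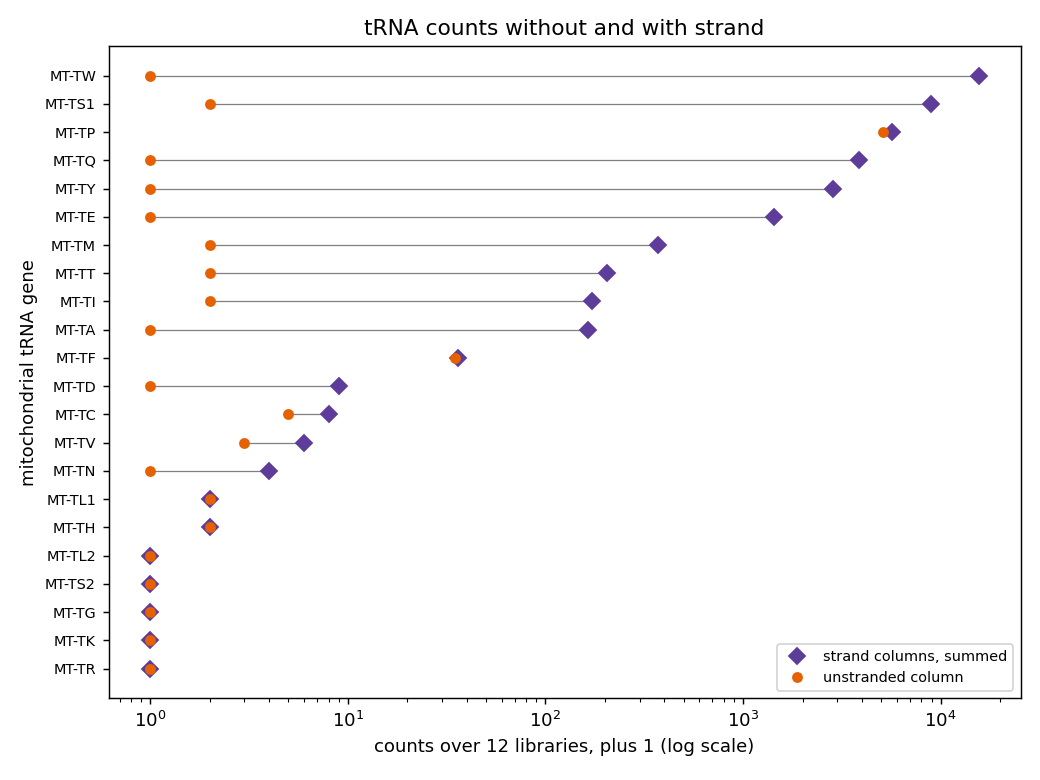
Counts of the 22 mitochondrial tRNA genes over all 12 libraries, plus 1 (log scale), in the unstranded column (circles) and summed over both strand columns (diamonds). MT-TP has 5099 and 5669, MT-TW has 0 and 15648, and 5 tRNAs are at 0 in both.

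Of the 407 nuclear copies of mitochondrial genes in the annotation, 302 had at least 1 count, and together they took 0.0231 to 0.0371% of gene counts. MTATP6P1 held 77.8% of these counts, 18154 in all. It had 1801, 2026 and 1973 counts in miR-211 libraries, against 1696, 1662 and 1619 in control plasmid libraries. With the U1 siRNA it had 1230, 896 and 1127, against 1474, 1017 and 1633 in scrambled oligo libraries. In every library its count was 18.5 to 20.8% of that of MT-ATP6, so the split of reads between both is uncertain. MTCO1P12 (98.7% identical to MT-CO1) had 56 to 236 counts, 0.137 to 0.390% of the MT-CO1 count, and MTND2P28 had 21 to 41 counts in 11 libraries but 187 in scrambled oligo 3.

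Whether miR-211 changed mitochondrial RNA was asked with edgeR's quasi-likelihood test over all 12685 genes that passed the filter on low counts, with Benjamini-Hochberg adjustment. Of the 37 genes, 16 passed this filter: both rRNAs, all 13 mRNAs and MT-TP. No mitochondrial gene changed at an adjusted p under 0.05, against 0.00788% of all genes tested (1 of 12685, MIR211 itself), and the adjusted p of the 16 lay between 0.996 and 0.997. Fitted log2 fold changes (miR-211 over control plasmid) were above 0 for 14 of the 16, with a median of 0.10 and a range of -0.03 to 0.23, beside a median of 0.008 over all genes tested. The fold changes use trimmed-mean scaling, while the CPM values given per library are plain shares of gene counts.

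In the rRNAs, MT-RNR1 had 2999.9, 1786 and 1643 CPM in miR-211 libraries, against 2386, 1443 and 1783 CPM in control plasmid libraries. Library 1 was highest in each group, and the groups overlap; the log2 fold change was 0.23 (SE 0.19, 95% interval -0.17 to 0.62). MT-RNR2 had 13459.9, 11828 and 8873 CPM in miR-211 libraries, against 11649, 9348 and 11452 CPM in control plasmid libraries. The lowest value here was that of miR-211 3, below every control plasmid library, and the log2 fold change was 0.10 (SE 0.12).

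In complex IV, MT-CO1 had 9852, 11598 and 7452 CPM in miR-211 libraries, against 11459, 8627 and 9996 CPM in control plasmid libraries. The highest and the lowest of these values both come from miR-211 libraries, and the log2 fold change was -0.03 (SE 0.13, 95% interval -0.30 to 0.25). MT-CO2 had 6364, 5804 and 5703 CPM in miR-211 libraries, against 5756, 5514 and 5357 CPM in control plasmid libraries. Here the groups overlap only through miR-211 3, which lies under control plasmid 1, and the log2 fold change was 0.13 (SE 0.07, 95% interval -0.02 to 0.28). MT-CO3 had 2925, 2575 and 2090.3 CPM in miR-211 libraries, against 3048, 2485 and 2309 CPM in control plasmid libraries. The groups overlap and the log2 fold change was -0.02 (SE 0.11).

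The complex III gene MT-CYB had 3053, 2960.1 and 2583 CPM in miR-211 libraries, against 2834, 2614 and 2608 CPM in control plasmid libraries. The groups overlap only through miR-211 3, and the log2 fold change was 0.12 (SE 0.08). Of the ATP synthase genes, MT-ATP6 had 1474, 1205 and 1306 CPM in miR-211 libraries, against 1359, 1224 and 1169.7 CPM in control plasmid libraries. MT-ATP8 had 105, 95.3 and 87.8 CPM in miR-211 libraries, against 93.5, 89.1 and 83.2 CPM in control plasmid libraries. Groups overlap for both, with log2 fold changes of 0.12 (SE 0.08) for MT-ATP6 and 0.14 (SE 0.09) for MT-ATP8.

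In complex I, MT-ND4L, which encodes a small membrane subunit, had 445, 403 and 386 CPM in miR-211 libraries, against 381, 345 and 369.8 CPM in control plasmid libraries. It was the only one of the 16 whose miR-211 libraries were all above the control plasmid libraries, a pattern found in 3.29% of all genes tested (and its opposite in 6.42%). The log2 fold change was 0.20 (SE 0.07, 95% interval 0.04 to 0.36), with an unadjusted edgeR p of 0.0156 and an adjusted p of 0.996, so it did not pass. Its partner MT-ND4, on the same bicistronic RNA, had 1548, 1403 and 1391 CPM in miR-211 libraries, against 1496, 1274 and 1278 CPM in control plasmid libraries. These groups overlap, and the log2 fold change was 0.13 (SE 0.08).

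MT-ND1 had 1509.9, 1214 and 1034 CPM in miR-211 libraries, against 1369.6, 1119 and 1107 CPM in control plasmid libraries. MT-ND2 had 1675, 1376 and 1214 CPM in miR-211 libraries, against 1649, 1317 and 1270.1 CPM in control plasmid libraries. MT-ND3 had 171, 164 and 134 CPM in miR-211 libraries, against 159, 137 and 156 CPM in control plasmid libraries. In these 3 the miR-211 3 library was the lowest of the 6, and the log2 fold changes were 0.09 (SE 0.11) for MT-ND1, 0.04 (SE 0.11) for MT-ND2 and 0.08 (SE 0.09) for MT-ND3. MT-ND5 had 1966, 1832 and 1845 CPM in miR-211 libraries, against 1960.0, 1804 and 1653 CPM in control plasmid libraries. MT-ND6 had 186, 191 and 180.3 CPM in miR-211 libraries, against 206, 169 and 169.7 CPM in control plasmid libraries. Groups overlap for both, with log2 fold changes of 0.09 (SE 0.07) for MT-ND5 and 0.06 (SE 0.08) for MT-ND6. The gene of the proline tRNA, MT-TP, whose counts can come from longer RNA, had 76.9, 72.3 and 67.1 CPM in miR-211 libraries. In control plasmid libraries it had 65.4, 67.9 and 79.4 CPM, where control plasmid 3 was the highest of the 6, and its log2 fold change was 0.05 (SE 0.10).

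Of the 16, 1 had an unadjusted edgeR p under 0.05, as did 3.29% of all genes tested (417). Libraries with the same replicate number deviated together in this comparison, and the values above come from the fit without a block for that number. With the replicate block it was 5 of the 16, beside 7.43% of all genes (943): MT-ND4L (edgeR p 0.00308), MT-CO2 (0.0129), MT-RNR1 (0.0135), MT-ND4 (0.0159) and MT-CYB (0.0320). None passed, with 0.605 as the lowest adjusted p among the 16. Within same-numbered pairs, MT-CO2, MT-ATP8, MT-ND4L, MT-ND4 and MT-ND5 had more CPM in the miR-211 library in 3 of 3 pairs, a pattern found in 11.8% of all genes tested, and 0 of the 16 had less in every pair, against 18.6% of all genes. The median over the 13 mRNAs was 0.09. It was 0.16 without miR-211 library 3, 0.14 without control plasmid library 1 and 0.06 without miR-211 library 1. In a fit that adds as covariate the percentage of pairs outside exons it was 0.05. That percentage was 24.3, 16.3 and 22.9% in miR-211 libraries, against 21.8, 14.5 and 16.8% in control plasmid libraries; its part in the result was not tested beyond that covariate.

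The U1 comparison asked whether less U1 changed the same RNAs. No mitochondrial gene passed at an adjusted p under 0.05, and neither did any other. In edgeR 0% of the 12413 genes tested passed, and 196 of them had an unadjusted p under 0.05. With DESeq2 and with limma-voom 0 passed. Of the 16 mitochondrial genes, 13 had fitted log2 fold changes (U1 siRNA over scrambled oligo) below 0, with a median of -0.03 and a range of -0.19 to 0.09, beside a median of 0.02 over all genes tested. Their adjusted p was 0.99994 in each case and none had an unadjusted p under 0.05, against 2 with the replicate block (MT-RNR1 with 0.0269 and MT-RNR2 with 0.0280 in edgeR) and 2 without U1 siRNA library 1 (also MT-RNR1 and MT-RNR2, with log2 fold changes of -0.40 and -0.33). Without scrambled oligo library 1, 12 of the 16 were above 0 and the median of the mRNAs was 0.04 in place of -0.03. Without scrambled oligo library 3 only 1 was above 0 and the median was -0.08, and with no filter on low counts only 1 was above 0 and it was -0.10. Without U1 siRNA library 3 it was -0.02 with 7 above 0. Without U1 siRNA library 2, which stood apart in its pairs outside exons, 6 were above 0 and the median was -0.02.

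MT-RNR1 had 1428, 885 and 1053 CPM in U1 siRNA libraries, against 1441, 1199 and 1167 CPM in scrambled oligo libraries. MT-RNR2 had 9796, 7075 and 7982 CPM in U1 siRNA libraries, against 10903, 8749.6 and 8554 CPM in scrambled oligo libraries. In both rRNAs U1 siRNA 2 was the lowest of the 6 libraries and library 1 was the highest of its group. The log2 fold changes were -0.18 (SE 0.16, 95% interval -0.53 to 0.16) for MT-RNR1 and -0.19 (SE 0.14, 95% interval -0.49 to 0.11) for MT-RNR2, the lowest of the 16.

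MT-CO1 had 4273, 9903 and 8601 CPM in U1 siRNA libraries, against 9216, 9295 and 5499 CPM in scrambled oligo libraries. A single library was low in each group, and the log2 fold change was -0.09 with the widest error of the 16 (SE 0.26, 95% interval -0.66 to 0.48). MT-CO2 had 5420.3, 5396 and 4720.3 CPM in U1 siRNA libraries, against 5512, 4889 and 4599 CPM in scrambled oligo libraries. MT-CO3 had 2042, 1795 and 1793 CPM in U1 siRNA libraries, against 2117, 1864 and 1793 CPM in scrambled oligo libraries. Groups overlap in both, and the log2 fold changes were 0.04 (SE 0.09) for MT-CO2 and -0.05 (SE 0.09) for MT-CO3.

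MT-CYB had 2007, 2003 and 1905 CPM in U1 siRNA libraries, against 2107, 1991 and 1886 CPM in scrambled oligo libraries. MT-ATP6 had 975, 1012 and 944 CPM in U1 siRNA libraries, against 1027, 919.5 and 909 CPM in scrambled oligo libraries. In both of these scrambled oligo 1 was the highest of the 6, with log2 fold changes of -0.03 (SE 0.07) for MT-CYB and 0.03 (SE 0.07) for MT-ATP6. MT-ATP8 had 66.1, 74.8 and 67.8 CPM in U1 siRNA libraries, against 62.8, 65.7 and 65.4 CPM in scrambled oligo libraries. It was the only one of the 16 whose groups did not overlap, with all U1 siRNA libraries higher, a pattern found in 3.54% of all genes tested (and its opposite in 2.92%). The log2 fold change was 0.09 (SE 0.08, 95% interval -0.09 to 0.27). Over all 12 libraries of both experiments MT-ATP8 had 338 to 806 counts, and its counting error at their mean was 4.28%, the largest among the mRNAs.

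MT-ND4L had 331, 357 and 303 CPM in U1 siRNA libraries, against 347, 338 and 307 CPM in scrambled oligo libraries. MT-ND4 had 1167, 1251 and 1075 CPM in U1 siRNA libraries, against 1249, 1191 and 1224 CPM in scrambled oligo libraries. In these 2 genes U1 siRNA 2 was the highest of the 6 and U1 siRNA 3 the lowest, and the log2 fold changes were -0.01 (SE 0.08) for MT-ND4L and -0.08 (SE 0.07) for MT-ND4. MT-ND5 had 1533, 1801 and 1482 CPM in U1 siRNA libraries, against 1649, 1571 and 1559 CPM in scrambled oligo libraries. MT-ND6 had 150.4, 183 and 138 CPM in U1 siRNA libraries, against 169, 158 and 152 CPM in scrambled oligo libraries. These neighbours, on opposite strands but counted without regard to strand, were likewise highest in U1 siRNA 2 and lowest in U1 siRNA 3. The log2 fold changes were -0.00047 (SE 0.08) for MT-ND5 and -0.03 (SE 0.09) for MT-ND6.

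MT-ND1 had 973, 838 and 838 CPM in U1 siRNA libraries, against 1029, 841 and 828 CPM in scrambled oligo libraries. MT-ND2 had 1081, 1033 and 955 CPM in U1 siRNA libraries, against 1188, 983 and 983 CPM in scrambled oligo libraries. MT-ND3 had 123, 106 and 113 CPM in U1 siRNA libraries, against 132, 123 and 108 CPM in scrambled oligo libraries. All 3 were highest in scrambled oligo 1, and their log2 fold changes were -0.04 (SE 0.10) for MT-ND1, -0.05 (SE 0.09) for MT-ND2 and -0.10 (SE 0.10) for MT-ND3. MT-TP had 58.6, 49.4 and 47.2 CPM in U1 siRNA libraries, against 54.6, 54.2 and 47.5 CPM in scrambled oligo libraries, with overlapping groups and a log2 fold change of -0.01 (SE 0.11).

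**Figure D5:**
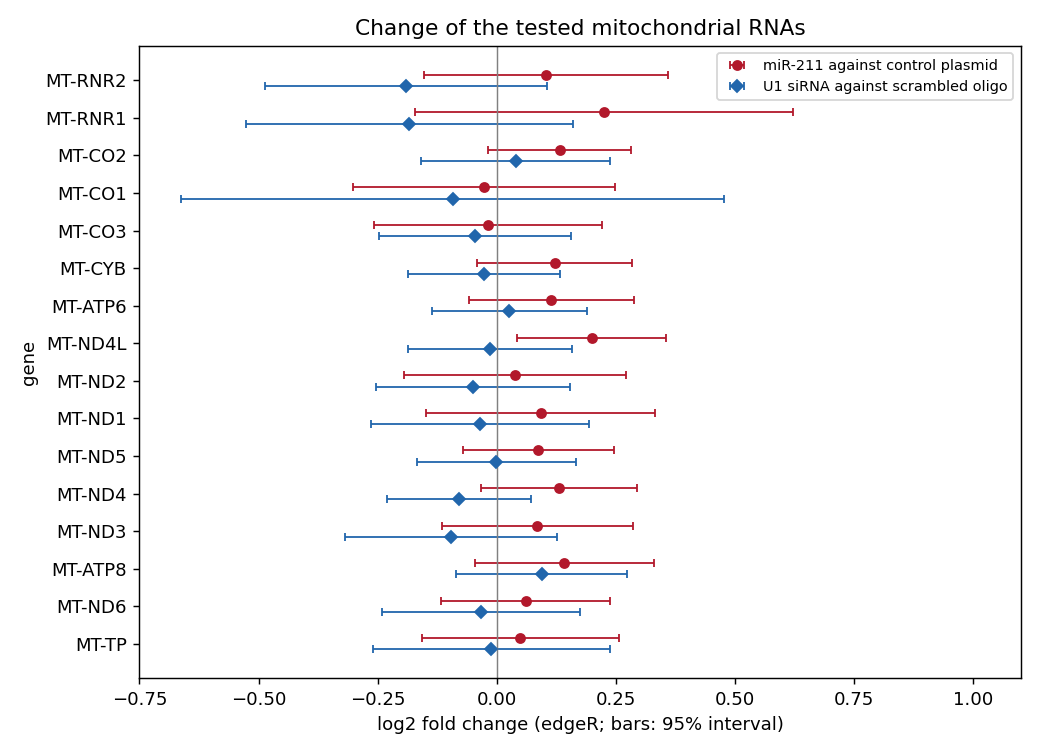
Fitted log2 fold change (horizontal axis, edgeR) of the 16 tested mitochondrial RNAs for miR-211 over control plasmid (circles) and U1 siRNA over scrambled oligo (diamonds), with bars for the 95% interval (n = 3 libraries per group). All 32 intervals include 0 except that of MT-ND4L for miR-211 (0.04 to 0.36), and none of the 32 passed at an adjusted p under 0.05.

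Both effects were then set against each other in a model over all 12 libraries, as the effect of miR-211 minus the effect of the U1 siRNA. No mitochondrial gene passed, against 0.00740% of the 13520 genes tested, and the adjusted p was 0.99997 for all 16. MT-ND4 had a difference of 0.21 (SE 0.10, unadjusted p of 0.0591 in edgeR) and MT-ND4L of 0.21 (SE 0.11, unadjusted p of 0.0661 in edgeR). The largest difference, 0.41 for MT-RNR1, had an SE of 0.30.

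The nuclear genes that copy, cut, modify and degrade mitochondrial RNA were taken as a list of 49, from POLRMT, the mitochondrial RNA polymerase, to the tRNA-modifying enzymes. All 49 were tested in both comparisons and none passed at an adjusted p under 0.05, against 0.00788% of all genes tested with miR-211 and 0% with the U1 siRNA. With miR-211, 21 were above 0 and 28 below, with a median log2 fold change of -0.03 beside 0.008 over all genes. In 1 of the 49 all miR-211 libraries were higher and in 5 all were lower, beside 3.29% and 6.42% of all genes. HSD17B10, a subunit of mitochondrial RNase P, had 215, 227 and 239 CPM in miR-211 libraries, against 190.5, 200.0 and 211 CPM in control plasmid libraries. These groups do not overlap, and the log2 fold change was 0.21 (SE 0.08, adjusted p of 0.996 in edgeR). PDE12, which removes poly(A) from mitochondrial mRNAs, had a log2 fold change of 0.14 (SE 0.10). MTERF3, of the family of mitochondrial transcription termination factors, had 45.6, 48.6 and 41.9 CPM in miR-211 libraries, against 61.4, 57.0 and 49.4 CPM in control plasmid libraries. These groups do not overlap either, and the log2 fold change was -0.27 (SE 0.10, adjusted p of 0.996 in edgeR). TFB2M, an initiation factor of mitochondrial transcription, had a log2 fold change of -0.18 (SE 0.09).

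With the U1 siRNA, 22 of the 49 were above 0 and 27 below, with a median log2 fold change of -0.006 beside 0.02 over all genes. In 1 of the 49 all U1 siRNA libraries were higher and in 3 all were lower, beside 3.54% and 2.92% of all genes. TFAM, which packages mitochondrial DNA and starts its transcription, had 189, 162 and 184 CPM in U1 siRNA libraries, against 209, 198 and 194 CPM in scrambled oligo libraries. All U1 siRNA libraries were lower, and the log2 fold change was -0.17 (SE 0.09, adjusted p of 0.99994 in edgeR). TRIT1, which modifies tRNAs, had a log2 fold change of -0.14 (SE 0.08). The highest of the list were PTCD1, a pentatricopeptide repeat protein of mitochondria, at 0.73 (SE 0.44) with under 5 CPM in every library, and MTERF2 at 0.34 (SE 0.21).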

How the data were processed

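RNA-seq of 12 HEK293T libraries, 3 in each of 4 groups, was taken from the tables of counts per gene that the authors deposited. Per the submitters' processing notes these came from STAR 2.7.2a, with GRCh37 and hg19 named as builds; all 58735 gene identifiers in the deposited tables are those of GENCODE 29, whose coordinates are on GRCh38, so the build of the alignment was not settled and the coordinates given are those of GENCODE 29 on GRCh38. Each deposited table has a column of counts without regard to strand, which was used, and a column for each strand setting. The 4 summary lines (unmapped, multi-mapping, outside exons, ambiguous) were kept out of library totals. Pairs that map to several places or overlap several genes are not counted. How libraries were prepared from the RNA was not given in the sources at hand.

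CPM are counts per 1000000 gene counts of the library. Fold changes, SEs and p-values come from edgeR 4.0.16 (glmQLFit, TMM scaling with factors of 0.977 to 1.03, filterByExpr), with Benjamini-Hochberg adjustment over all genes tested and a threshold of 0.05, with 6 libraries in each comparison and all 12 for the difference of both effects. DESeq2 1.42.0, limma-voom 3.58.1, other scalings, no filter, both strand columns, a replicate block and leaving out each library were alternatives. A covariate for the percentage of pairs outside exons was added after seeing the data. The code was tested on simulated data. Chi-square over genes was 1.95 to 7.03 per degree of freedom between any 2 libraries of a group, above sampling noise, so none was taken for a repeat deposit of another; this does not show separate cultures. In the miR-211 comparison, libraries with the same replicate number deviated together (correlations of 0.25, 0.31 and 0.24, each over 0.1), a pairing that comes from the data, as the labels do not explain the numbers. The fold changes and p-values given are from the fit without the replicate block, and block values are given beside them where they change a count. The 37 genes were taken by symbol, and all rRNAs, mRNAs and tRNAs with a mean of at least 1 CPM are given per library; of the machinery list, the 2 highest and 2 lowest by signed p are named. The genes and lists were chosen with earlier results of these data known. A marker of the HEK293T list, and the sum over that list, are not reported here. Shares, orders and ratios are descriptions without a test.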

Additional observations from a re-analysis of the deposited data

How the results depend on the processing

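No mitochondrial gene passed in either comparison or in their difference under any setting run. The number of all genes called stayed at 1 for miR-211 in edgeR, DESeq2 and limma-voom and without each library (1 to 1), and was 2 with no filter on low counts, 2 with strand column 3 and 2 with strand column 4. For the U1 siRNA it was 0 in these 3 tools and without each library (0 to 0), but 7 with no filter, which also moved the median log2 fold change of all genes to 0.17, against 0.02 with the filter. For the difference of both effects it was 1, or 3 with no filter, 0 with library totals in place of TMM, and 0 to 1 without each library. In the U1 comparison the libraries with the same replicate number share only a number (correlations of 0.14, 0.09 and -0.05); with the replicate block 0 genes were called, 224 had an unadjusted p under 0.05 in place of 196 (2 of the 16 mitochondrial genes in place of 0), and the median of the mRNAs was -0.03. The block changed no other call: 1 gene for miR-211 and 1 for the difference.

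Since all 16 fold changes are small, several changed sign. For miR-211, MT-TP was -0.0023 in strand column 3, and with the covariate for pairs outside exons MT-RNR1 was -0.020 and MT-ND2 -0.050. For the U1 siRNA, MT-ND5 was 0.011 with library totals, 0.0035 with scaling without the MT- genes and 0.011 in strand column 4; with no filter MT-CO2 was -0.035 and MT-ATP6 -0.048; in strand column 3 MT-ND4L was 0.019 and MT-TP 0.096; with the covariate MT-ND1 was 0.014 and MT-TP 0.028. Leaving out each library for miR-211 gave ranges of -0.023 to 0.14 (MT-TP), -0.089 to 0.42 (MT-RNR1), -0.090 to 0.14 (MT-ND2), -0.028 to 0.26 (MT-RNR2), -0.057 to 0.22 (MT-ND1), -0.20 to 0.13 (MT-CO1) and -0.13 to 0.10 (MT-CO3). For the U1 siRNA it gave -0.064 to 0.042 (MT-ND5), -0.029 to 0.13 (MT-CO2), -0.018 to 0.10 (MT-ATP6), -0.078 to 0.040 (MT-ND4L), -0.12 to 0.043 (MT-TP), -0.12 to 0.091 (MT-ND1), -0.31 to 0.19 (MT-CO1), -0.11 to 0.066 (MT-ND2), -0.12 to 0.047 (MT-CO3), -0.13 to 0.032 (MT-ND6) and -0.077 to 0.032 (MT-CYB). The difference in tRNA share, 0.000177 percentage points for miR-211 minus control plasmid, was -0.00222 and -0.000581 in strand columns 3 and 4, and that for U1 siRNA minus scrambled oligo, -0.0000479, was -0.00239 and -0.00218. Of the 13 mRNA ranks, 9 were kept in strand column 3, 8 in strand column 4 and 1 in counts not divided by length. The cause of the changes in fold change and share was not tested. Counting error was 4.28% beside a coefficient of variation within groups of 6.36% for MT-ATP8, and 4.85% beside 9.41% for MT-TP. Such errors add as squares, so counting error makes up the smaller part of the squared spread for both MT-ATP8 and MT-TP. The counts of the other tRNAs depend on the counting rule, and those of MT-TP can come from longer RNA.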
